A study of Arabidopsis thaliana with 4 samples.

Results

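Transcripts of AT5G55450 and AT5G48490, which are listed as genes of the lipid transfer protein family, were examined in shoots of the Arabidopsis *aln-1* mutant and the wild type (WT). These genes are 2 of the 21753 genes and probe sets with values on the array, each measured by 1 probe set (248062_at and 248683_at) that the platform annotation assigns to a single gene. Both were selected on the size of the fall of their scores from WT to *aln-1* in these same 4 arrays, so their falls are described below and were not tested. Lipid transfer proteins of plants are small secreted proteins that bind fatty acids and other lipids in a hydrophobic cavity held open by disulfide bridges between conserved cysteines. The family is known for roles in the cuticle, in the cell wall and in defense. DIR1, encoded next to AT5G48490, is required for systemic acquired resistance, the spread of immunity from an infected leaf to distant ones.

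RNA came from aerial parts of seedlings grown aseptically under long days and collected 2 weeks after germination. Of the 4 Affymetrix ATH1 arrays, 2 were from *aln-1*, a T-DNA insertion line without a working *ALLANTOINASE* (*ALN*) gene, and 2 from WT, and both genotypes are in the Columbia-0 background. The mutant is represented by this 1 insertion line, and no source states that replicates were grown separately. The p-values thus rest on a spread that may be technical only. Each value is a score deposited after a parametric normalization, in which the base of the logarithm and the scale are not stated. Differences are therefore given in score units, *aln-1* minus WT, and no fold change is derived. For orientation, the SD over all genes and probe sets of an array was 0.620 to 0.657 score units, and array medians lay between 0.155 and 0.174. With 2 arrays per genotype, precision is low throughout.

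As a check of the labels, *ALN* scored 0.367 and 0.442 on the WT arrays but only -0.0466 and 0.00508 on the *aln-1* arrays. The difference of -0.425 (SE 0.0505) had an adjusted p of 0.0116 from limma, which rose to 0.0846 when WT replicate 1 was omitted and to 0.0726 when WT replicate 2 was. Of all genes and probe sets, 8.18% were lower in *aln-1* at an adjusted p under 0.05. The fall of *ALN* was the 305th largest among named genes. Across genes, which are not independent replicates, the correlation of scores within a genotype was 0.981 (*aln-1*) and 0.987 (WT), and that across genotypes 0.901 to 0.947. Of 12 genes listed for aerial photosynthesis only *RCA*, the gene for rubisco activase, had a single-gene probe set. In WT its scores were 2.77 and 2.72, higher than 99.9% of genes and probe sets, and in the mutant 2.52 and 2.39. None of 10 flower and seed markers was measured.

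AT5G55450 was the member with the higher scores and stayed well above the low end of the arrays in the mutant. Its scores were 2.20 and 1.93 in WT replicates 1 and 2 and 0.706 and 0.593 in *aln-1* replicates 1 and 2. The *aln-1* arrays lay below both WT arrays with no overlap. The group means were 2.06 ± 0.195 (SD, n = 2) in WT and 0.649 ± 0.0800 (SD, n = 2) in *aln-1*, a difference of -1.41 score units. Among the 4 pairs of an *aln-1* and a WT array, the fall ranged from -1.22 to -1.61, whereas replicates of a genotype differed by at most 0.275.

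AT5G48490 fell by a similar amount and ended lower. Scores of 1.19 and 1.10 in WT replicates 1 and 2 stood against -0.0941 and -0.274 in *aln-1* replicates 1 and 2. Here too every *aln-1* array was below every WT array. Means were 1.14 ± 0.0618 (SD, n = 2) in WT and -0.184 ± 0.127 (SD, n = 2) in *aln-1*, and the difference was -1.33 score units. The fall ranged from -1.19 to -1.46 over the pairs of arrays, and the larger gap between replicates was 0.180. Scores without overlap and lower in *aln-1* were found for 41.4% of all genes and probe sets tested, and scores without overlap and higher in *aln-1* for 25.4%, so nothing is read from the separation of the members.

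**Figure D1:**
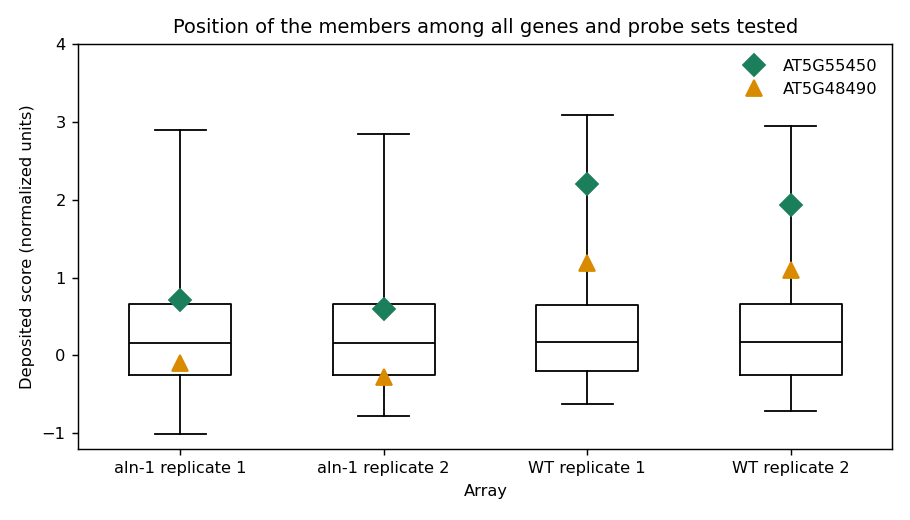
Scores of AT5G55450 (diamonds) and AT5G48490 (triangles) on each of the 4 arrays (x axis), in deposited score units (y axis). Boxes span the quartiles of all 21753 genes and probe sets, the line is the median and whiskers reach the lowest and highest score. AT5G55450 drops from 2.20 and 1.93 in WT to the upper edge of the box in *aln-1*, and AT5G48490 drops from 1.19 and 1.10 to below the median.

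The word "lost" would overstate the change of AT5G55450. In *aln-1* its mean score still exceeded those of 74.7% of the genes and probe sets tested, against 98.6% in WT. For AT5G48490 the share was 29.7% in *aln-1* and 90.0% in WT, so this transcript went from the upper to the lower part of the range. By array, 77.0% and 72.0% of scores were below AT5G55450 in *aln-1* replicates 1 and 2, and 35.8% and 23.3% were below AT5G48490. Both genes stayed above the lowest single score, which was -1.01 in *aln-1* replicate 1 and -0.776 in *aln-1* replicate 2. That score is not a limit of detection, and whether AT5G48490 was still detected in *aln-1* was not tested. In whole shoots, fewer cells with the transcript and less transcript per cell cannot be told apart.

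Among 12718 named genes, the falls of AT5G55450 and AT5G48490 were the 7th and the 10th largest. These places follow from how the members were selected. The next gene after AT5G48490, AT2G15042, had a difference of -1.30. PDF1.2b, a plant defensin gene, stood just before AT5G48490 at -1.35. The order depended on single arrays. Without WT replicate 2 AT5G48490 ranked 16th and AT5G55450 7th, and without WT replicate 1 they ranked 9th and 10th, respectively.

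Both members lie on chromosome 5, with 753 protein-coding genes between them in the TAIR10.1 gene table. AT5G55450 lies between AT5G55440 and AT5G55460 among protein-coding genes, and the table places a long non-coding RNA gene, AT5G08275, within the same stretch. Strand and probe positions were not used here, so a part of the signal from this RNA gene was not tested. The neighbours AT5G55410, AT5G55460 and AT5G48485 (*DIR1*), chosen for comparison, had no single-gene probe set and were not analysed here. Of the 20 listed genes within 5 places of a member, 5 had one.

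Of these 5 neighbours, 1 was lower in *aln-1* at an adjusted p under 0.05 and none was higher, where 8.18% of all genes and probe sets were lower and 7.42% higher. At an unadjusted p under 0.05 from limma, AT5G48460 and AT5G48500 were lower as well, a threshold that 20.8% of all genes and probe sets passed as lower. The one called gene was AT5G55420, a transcribed pseudogene 3 places from AT5G55450. It had scores of 0.302 and -0.0949 in WT replicates 1 and 2 and of -0.607 and -0.609 in *aln-1*, a difference of -0.711 (SE 0.131, adjusted p = 0.0286 from limma). The WT arrays differed from each other by more than those of the other neighbours did, and only 2.25% of genes and probe sets scored below the *aln-1* mean, so the size of this fall is uncertain. The call was lost when *aln-1* replicate 1 (adjusted p = 0.0501), *aln-1* replicate 2 (0.0777) or WT replicate 1 (0.0694) was omitted. AT5G55400, 5 places away on the same side, had scores of 0.331 and 0.381 in WT and 0.233 and 0.340 in *aln-1*. Its groups overlapped, with a difference of -0.0693 (SE 0.0558, adjusted p = 0.424) that ranged from -0.123 to -0.0158 when 1 array was omitted.

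Around AT5G48490 no measured neighbour passed the test. AT5G48480, whose listed span takes in that of *DIR1*, had scores of 1.23 and 1.29 in WT and 1.44 and 1.17 in *aln-1*. These overlapped, and the difference was 0.0383 (SE 0.0964, adjusted p = 0.808). It was -0.0969 without *aln-1* replicate 1. AT5G48500, the next listed gene on the other side, had 0.529 and 0.590 in WT and 0.381 and 0.114 in *aln-1*. The difference was -0.312 (SE 0.0955, adjusted p = 0.0858 from limma), and it ranged from -0.446 to -0.178 when 1 array was omitted. AT5G48460, 5 places away, had 0.100 and 0.122 in WT and -0.0513 and -0.245 in *aln-1*. Its difference of -0.259 (SE 0.0739) had an adjusted p of 0.0739 from limma, and it ranged from -0.356 to -0.162 when 1 array was omitted. The differences of these 5 genes, between -0.711 and 0.0383, were all smaller in size than those of the members. That contrast follows from how the members were picked and was not tested.

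**Figure D2:**
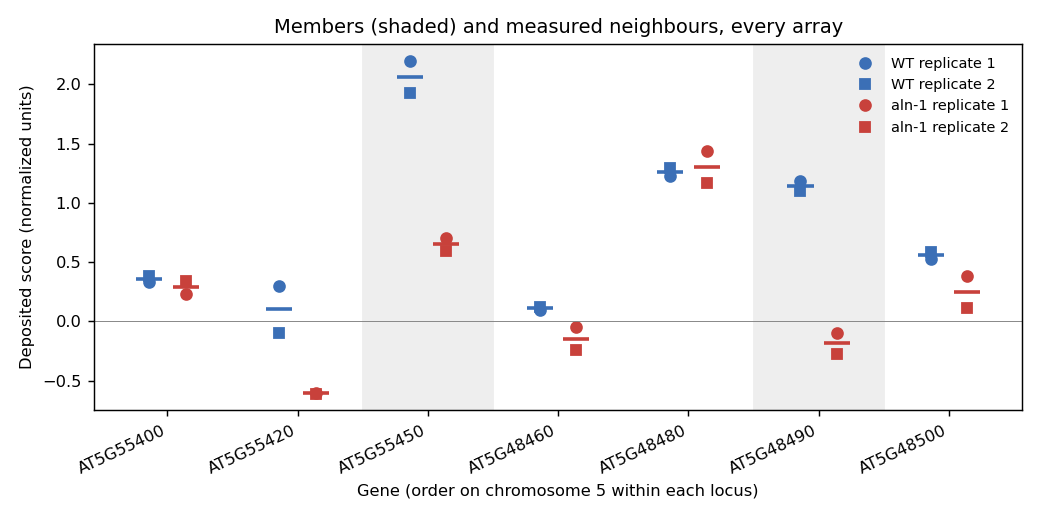
Scores on every array (y axis, deposited score units) for the members (shaded) and their 5 measured neighbours (x axis, in chromosome order within each locus). Circles and squares are replicates 1 and 2, and bars are group means. AT5G55420 is the one neighbour with a lower score in *aln-1* at an adjusted p under 0.05, and AT5G48480 overlaps between genotypes.

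Among the other measured genes of the lipid transfer protein family, more passed the test as higher than as lower. Of 104 further genes in a hand-written list for the family, 48 had a single-gene probe set. At an adjusted p under 0.05, 8 of the 48 (16.7%) rose in *aln-1* and 1 (2.08%) fell, beside 7.42% and 8.18% of all genes and probe sets tested. At an unadjusted p under 0.05, 12 of the 48 were higher and 5 lower, beside 14.5% and 20.8% of all genes and probe sets. The median difference of the 48 genes was 0.0138 score units and that of all genes and probe sets was -0.0320. Differences ran from -0.402 to 0.997, whereas AT5G55450 and AT5G48490 had -1.41 and -1.33. Many of these genes had low scores. In WT, 32 of the 48 were below the middle of the tested range and 19 of these were in its lowest part, with under 25% of genes and probe sets beneath them. Of the 16 in the upper part, 3 rose and none passed as a fall at the adjusted p from limma, where 8.43% and 11.2% of all genes and probe sets in that part did. AT2G27130 alone of the 16 was lower at an unadjusted p under 0.05, as were 26.4% of all genes and probe sets there.

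AT4G33550 had the smallest p among the family genes that rose. It had scores of -0.0185 and 0.133 in WT and 0.761 and 0.672 in *aln-1*. The groups were well apart, with a difference of 0.659 (SE 0.0691, adjusted p = 0.0095 from limma). AT3G22570 went from -0.174 and -0.0675 to 0.260 and 0.410, a difference of 0.456 (SE 0.0711, adjusted p = 0.0200). For AT1G73780 the scores were -0.259 and -0.158 in WT and 0.152 and 0.313 in *aln-1*. All arrays of the mutant were again above those of WT, and the difference was 0.441 (SE 0.0725, adjusted p = 0.0223). AT3G58550, with 0.618 and 0.813 in WT and 1.10 and 1.16 in *aln-1*, had a difference of 0.415 (SE 0.0758, adjusted p = 0.0282).

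The remaining rises were those of AT3G22620, AT2G48130, AT2G15325 and AT4G22610, between 0.451 and 0.997. AT4G22610 had the largest, singled out here after its values were seen, with scores of 0.512 and 0.977 in WT and 1.53 and 1.95 in *aln-1* (SE 0.201, adjusted p = 0.0351). Its replicates were also far apart within each genotype. These calls depended on which array was left out, as did those over all genes and probe sets. Of the 8 genes, 6 passed without *aln-1* replicate 1, 4 without *aln-1* replicate 2, 3 without WT replicate 2 and none without WT replicate 1, while all differences stayed positive, from 0.310 to 1.23. In these fits the lone array of a genotype is assumed to vary as the pair of the other genotype does.

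Among the other family genes, only AT1G70250 was lower at an adjusted p under 0.05, and its call rested on 1 of its 2 probe sets. The probe set with the higher mean gave 0.101 and 0.0148 in WT and -0.390 and -0.299 in *aln-1*, a difference of -0.402 (SE 0.0572, adjusted p = 0.0165 from limma). The other gave -0.389 and -0.383 in WT and -0.455 and -0.342 in *aln-1*, which overlapped. With the mean of both, the difference was -0.207 and the adjusted p 0.0614. For the first probe set, omission of WT replicate 1 or 2 raised the adjusted p to 0.124 or 0.0703. AT4G12500 had scores of -0.435 and -0.333 in WT and -0.777 and -0.601 in *aln-1*. This difference of -0.305 (SE 0.0761) had an adjusted p of 0.0558 from limma. That p became 0.0223 when the replicate number was fitted as a block and 0.106 with quantile normalization. When 1 array was omitted, the difference of AT4G12500 ranged from -0.393 to -0.217. AT4G12490, its close neighbour by locus number, had -0.431 and -0.348 against -0.598 and -0.572, a difference of -0.196 (SE 0.0498, adjusted p = 0.0582). Scores of both genes lay low, with 11.9% and 11.5% of genes and probe sets below their WT means. AT2G27130 had a difference of -0.148 (SE 0.0446, adjusted p = 0.083). AT4G12470 and AT4G12480 had no single-gene probe set and were not analysed here.

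**Figure D3:**
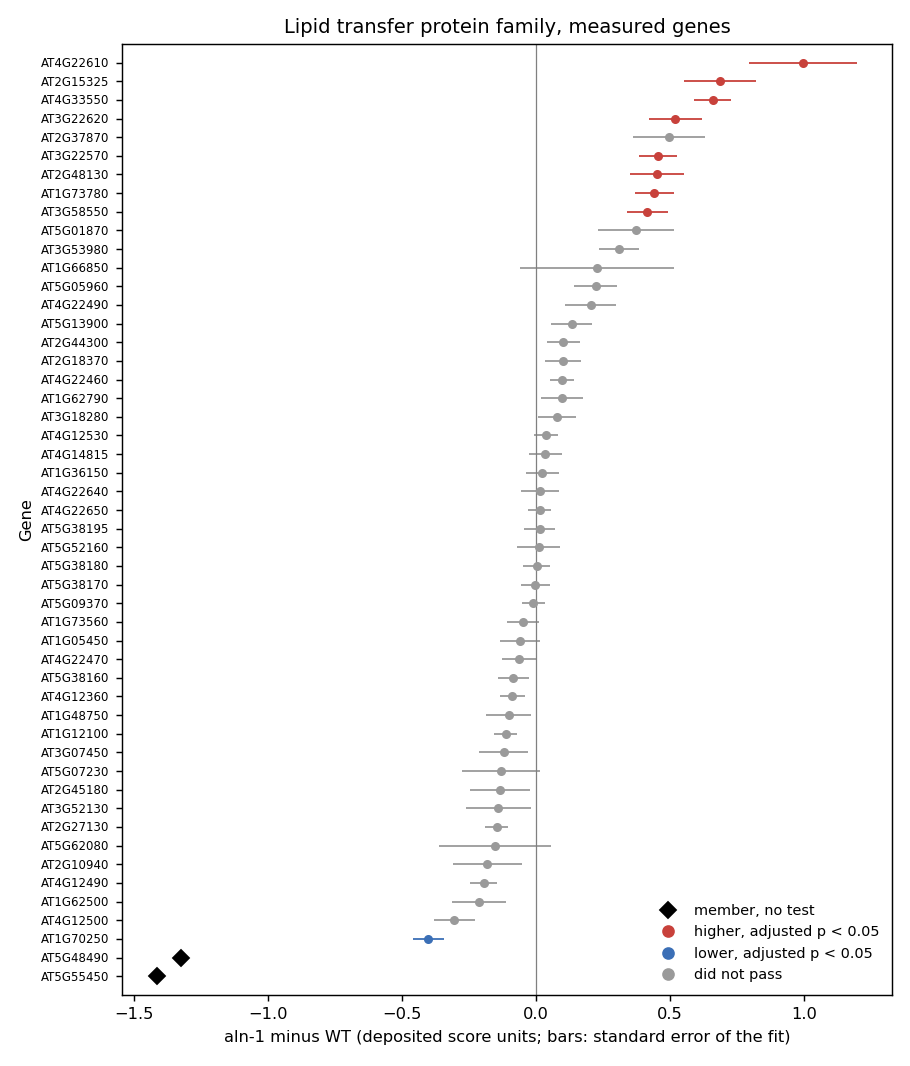
Difference *aln-1* minus WT in deposited score units (x axis) for the 50 measured genes of the lipid transfer protein family (y axis, sorted), with bars for the SE of the limma fit. Black diamonds are AT5G55450 at -1.41 and AT5G48490 at -1.33, drawn without a test, red and blue points are genes with higher and lower scores at an adjusted p under 0.05, and grey points did not pass.

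Lists for resistance and the cuticle cover processes that lipid transfer proteins are known for, and a link of the members to them was not tested. In the list for systemic acquired resistance, 6 of 33 genes were measured. At an adjusted p under 0.05 from limma, 1 rose and 1 fell, beside 7.42% and 8.18% of all genes and probe sets tested. With 6 genes, nothing about the list is read from these counts. *BSMT1*, which encodes a methyltransferase of salicylic acid, had the rise, from -0.375 and -0.546 in WT to 0.658 and 0.780 in *aln-1* (difference 1.18, SE 0.0779, adjusted p = 0.00416 from limma). *SAG101*, whose protein works with EDS1 in immune signaling, fell by 0.399 (SE 0.0698, adjusted p = 0.0255), and the call was lost when WT replicate 1 (0.166) or 2 (0.0958) was omitted. *UGT76B1*, the gene of a glycosyltransferase, had a difference of 0.249 with overlapping groups (SE 0.229, adjusted p = 0.481). AT5G03350 and AT5G52810 had differences of 0.105 and 0.138 (adjusted p = 0.269 and 0.383). When 1 array was omitted they ranged from 0.0395 to 0.170 and from 0.00471 to 0.271. AT4G12490, described above, is also in this list. The median of the 6 differences was 0.121.

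For cuticle wax and cutin, 4 of 39 listed genes were measured and none passed the adjusted p from limma, although at an unadjusted p under 0.05 1 was higher and 1 lower, where 14.5% and 20.8% of all genes and probe sets were. *WSD1*, which encodes a wax ester synthase, had scores of 0.168 and -0.0410 in WT and 1.17 and 0.560 in *aln-1*. The mutant arrays were both higher but far apart, and the difference was 0.802 (SE 0.206, adjusted p = 0.0594). Among the alternatives that kept all arrays, a call was made only under the replicate block (adjusted p = 0.00833 from limma). AT5G61590, listed as *DEWAX* and known to repress wax synthesis, had a difference of -0.231 (SE 0.0717, adjusted p = 0.0884). With all arrays kept, this passed only under the block (0.0434). *SHN3*, a regulator of cutin, had one of -0.204 (SE 0.0893, adjusted p = 0.175). When *aln-1* replicate 1 was omitted it was -0.322 (0.0338), and when *aln-1* replicate 2 was omitted -0.0868 (0.439). AT5G33370 had a difference of 0.484 with overlapping groups (SE 0.303, adjusted p = 0.313, and 0.0349 with the block). Omission of *aln-1* replicate 1 reduced it to 0.0564, and that of *aln-1* replicate 2 raised it to 0.912. Omission of 1 array moved *WSD1* between 0.497 and 1.11 and *DEWAX* between -0.308 and -0.153. The median of the 4 differences was 0.140.

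Markers of cell types moved in part with the genotypes, and their part in the changes of the members was not tested. *SPCH* and *FMA*, regulators of stomatal cells in the epidermis and the measured 2 of 9 epidermis markers, had differences of -0.152 and -0.173 (adjusted p = 0.0814 and 0.0548). *FMA* passed with a variance trend in the fit (0.0478) and when the genes with the lowest means were removed (0.0399). The summed scores of this pair were -0.209 and -0.227 on the WT arrays and lower, at -0.529 and -0.557, on the *aln-1* arrays. *SPCH* scored low, with 17.0% of genes and probe sets below its WT mean and 8.69% below its *aln-1* mean. Scores without overlap and lower in *aln-1* were found for 41.4% of all genes and probe sets. *EXPA7*, a root hair expansin gene and the measured 1 of 9 root markers, rose by 0.250 (SE 0.0551, adjusted p = 0.043), from -0.277 and -0.324 in WT to -0.104 and 0.00141 in *aln-1*. It too scored low in WT, where 18.8% of genes and probe sets were below its mean. The adjusted p became 0.0508 under the replicate block, 0.108 when *aln-1* replicate 2 was omitted, and 0.183 or 0.187 when WT replicate 1 or 2 was. *RCA* fell by 0.292 (SE 0.0619, adjusted p = 0.039), which became 0.0867 when *aln-1* replicate 2 was omitted, and 0.212 or 0.142 when WT replicate 1 or 2 was.

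The genes most like the members over the 4 arrays were ranked by the Euclidean distance between scores after the mean of each gene was subtracted, among 12717 other named genes. The measure uses the same arrays that picked the members, so it is a description. For AT5G48490 the nearest was AT1G78450 at a distance of 0.0786, followed by AT2G15042 (0.120), AT5G55450 (0.166), AT5G59670 (0.166) and AT2G35820 (0.201). For AT5G55450 the nearest were AT1G78450 and AT2G15042 (both 0.140), AT5G48490 (0.166), AT5G24210 (0.199) and PDF1.2b (0.207). Each member was thus in place 3 on the list of the other, and the first 2 places were held by the same genes. AT1G78450 had scores of 1.11 and 1.03 in WT and -0.261 and -0.404 in *aln-1*, and AT2G15042 had 1.07 and 0.885 against -0.305 and -0.347. The defensin gene PDF1.2b, with 1.30 and 0.744 in WT and -0.258 and -0.397 in *aln-1*, had a wider spread between the WT arrays than either member.

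**Figure D4:**
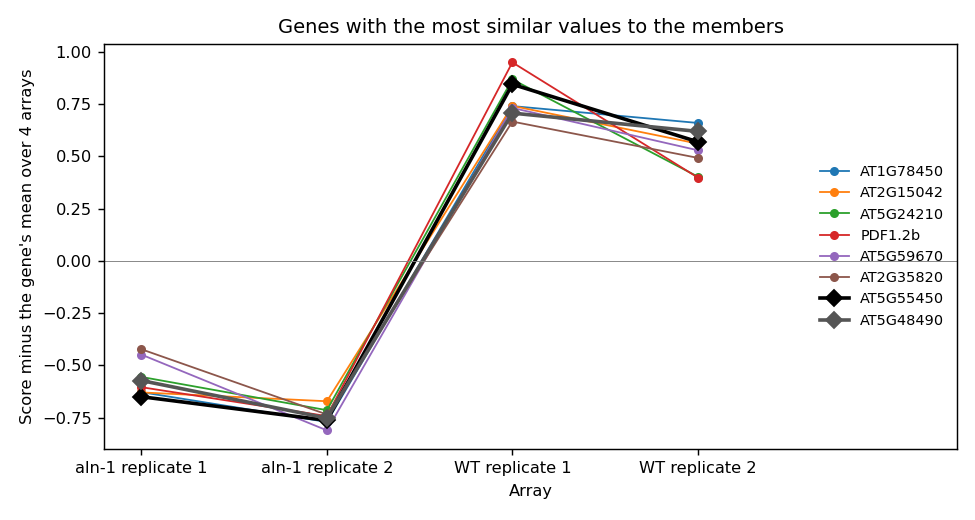
Scores on each array (x axis) minus the mean of the gene over the 4 arrays (y axis, deposited score units) for the members (diamonds) and the 6 genes nearest to one or both of them. Lines only join the points of a gene. All 8 genes are low on both *aln-1* arrays and high on both WT arrays, and PDF1.2b shows the widest gap between the WT arrays, 1.30 and 0.744 before centring.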

How the data were processed

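The scores analysed here were deposited by the authors, who renormalized earlier raw ATH1 data with the three-parameter lognormal method (SuperNORM). Its version, the background step and the summary of probes are not known here. The p-values that the authors deposited beside them come from a two-way ANOVA of the same comparison and were not used. Of 22810 probe sets, 64 controls and 842 without values were left out. In the platform annotation 13513 probe sets had a single gene, 503 had more and 8730 had none listed. Where probe sets shared a gene, that with the highest mean was kept. Single-gene probe sets were named through TAIR10.1 (13436 matched).

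Genotypes were compared with lmFit and eBayes (limma 3.58.1, R 4.3.3), two-sided, with Benjamini-Hochberg adjustment over 21753 genes and probe sets and a threshold of 0.05. The fit was tested on simulated data. The methods name a two-way ANOVA whose second factor is not given, so genotype was the only term. The members and lists were chosen with earlier results of these data known. Named genes are the members, neighbours within 5 places, *ALN*, up to 4 genes with the smallest p in each direction of a list, and the 5 genes nearest each member. Of the lists, those for aerial photosynthesis, epidermis, root, and flower and seed hold markers. Alternatives covered a replicate block, scaling, filters, the variance prior, probe-set choice, the source table and leaving out each array. Protein and promoter sequences were not used here.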

Additional observations from a re-analysis of the deposited data

How the results depend on the processing

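The members' differences moved by less than the SD between replicates under the 8 alternatives that kept all arrays, and ranged over -1.55 to -1.28 (AT5G55450) and -1.42 to -1.24 (AT5G48490) when 1 array was left out. With the replicate number as a block, 2 lipid transfer protein family genes were lower and 11 higher, beside 1854 lower and 1919 higher among all genes and probe sets, and 1 cuticle gene was lower and 2 were higher. The titles do not say that numbers pair the arrays, and same-numbered deviations correlated with r = 0.0413 across genes. The count of 1 lower family gene became 0 when the lowest 1 in 3 features by mean were removed and with the mean of probe sets. Leaving out 1 array gave 0 to 3 lower and 0 to 7 higher family genes, 61 to 2372 lower and 71 to 2114 higher among all genes and probe sets (1779 and 1615 with all arrays), 0 to 1 lower gene for systemic acquired resistance, and 0 to 2 lower and 0 to 1 higher for the cuticle. Differences then ranged over -0.910 to -0.513 for AT5G55420, -0.356 to -0.162 for AT5G48460, -0.0969 to 0.174 for AT5G48480, -0.446 to -0.178 for AT5G48500 and -0.0611 to 0.560 for *UGT76B1* (AT3G11340). The causes were not tested. With quantile normalization or median centring the family median was 0.0479 or 0.0320, and that of all genes and probe sets -0.0122 or -0.0138. Signal over background was not used here, so low scores are uncertain in size.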
